A study of Saccharomyces cerevisiae with 12 samples.

Results

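RNA bound to Mex67 was compared directly with RNA bound to Npl3 in budding yeast, Saccharomyces cerevisiae, after 30 min at 42 °C. The comparison used 4 of the 12 libraries of the study, chosen by their titles: 2 Mex67 immunoprecipitates and 2 Npl3 immunoprecipitates from heated cells. All annotated features were considered, and the 4 libraries had counts in 6029 and 5827 features for Mex67 and in 5862 and 6007 features for Npl3. The 4 precipitates of the same proteins from cells kept at 25 °C entered the fit to estimate the spread and are given where a temperature comparison is made. The 2 libraries of strains without a tag at 42 °C were not part of the contrast. For some genes their levels are given beside those of the proteins as the background of the precipitation.

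Mex67 is the export receptor that carries messenger RNA through nuclear pores in yeast. Npl3 is a shuttling, SR-like RNA-binding protein that joins messages during transcription, takes part in splicing and polyadenylation, and is one of the adaptors that recruit Mex67. In heat shock most messages are held back in the nucleus, while transcripts of heat shock genes leave it. By its title, the study concerned how stress transcripts are exported quickly past the quality control of the nucleus. The relative amount of a message with the receptor and with an adaptor after heating is the quantity compared here.

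The cells were grown in rich medium (YPD) at 25 °C, and each culture was divided, with one portion shifted to 42 °C. All cells were cross-linked with UV light before the precipitation. The Mex67 libraries came from strain HKY1266, the Npl3 libraries from strain HKY157, and the no-tag libraries from HKY36 and HKY381. The labels name c-myc antibody beads and GFP-Trap beads without assigning them to samples, so protein, strain and bead type cannot be told apart here. No library of total RNA was used, so a difference in how much of a message the strain held and a difference in how much of it was bound to the protein cannot be told apart either. The series describes its replicates as biological, and each group had 2.

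The Mex67 libraries held 889402 and 449513 counts and the Npl3 libraries 778484 and 1011990 counts. The rank correlation over the 5334 tested features was 0.833 between the Mex67 replicates and 0.880 between the Npl3 replicates. Between the proteins it ran from 0.613, for Mex67 replicate 2 with Npl3 replicate 1, to 0.825, for Mex67 replicate 1 with Npl3 replicate 2. Replicate 1 of Mex67 was thus nearly as close to an Npl3 library as to its own replicate. The replicate numbers differed in some a-cell genes in every group of the study. STE2, the receptor of a cells, had 0 to 8.56 CPM (counts scaled to a common library size) in the 6 libraries numbered 1. It had 138 to 381 CPM in the 6 numbered 2. STE6, the exporter of a-factor, had 4.66 to 44.2 CPM in the libraries numbered 1 and 112 to 477 CPM in those numbered 2. The labels nevertheless give both Mex67 replicates 1 strain and both Npl3 replicates 1 strain. BAR1 did not overlap between the numbers either, but the other mating-type genes did, among them the a-cell genes MFA1, MFA2 and AGA2. The alpha-cell genes overlapped too, as STE3 did at 1.32 to 514 CPM in libraries numbered 1 and 13.6 to 368 CPM in those numbered 2. The heat label was checked with HSP26, a small heat shock protein that holds unfolded proteins in solution, which had 8754 and 11302 CPM at 42 °C with Mex67, against 157 and 72.8 CPM at 25 °C. With Npl3 it had 11028 and 5854 CPM at 42 °C, against 710 and 97.6 CPM at 25 °C. HSP12 likewise was higher at 42 °C in every Mex67 and Npl3 replicate. HSP42, HSP104 and SSA4 were higher at 42 °C in both Mex67 replicates. With Npl3, HSP42 had 1206 and 668 CPM at 42 °C, against 349 and 1600 CPM at 25 °C. SSA4 had 617 and 1462 CPM with Npl3 at 42 °C, against 672 and 85.0 CPM at 25 °C. HSP104 had 2668 and 3050 CPM with Npl3 at 42 °C, against 2631 and 1920 CPM at 25 °C.

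No feature passed the test of Mex67 against Npl3 at 42 °C (0% of 5334, edgeR quasi-likelihood test, Benjamini-Hochberg adjusted p under 0.05). The lowest adjusted p was 0.0709, and 175 features shared it, of which 32 were higher and 143 lower with Mex67. At an unadjusted p under 0.05, 410 features were higher (7.69%) and 767 lower (14.4%) with Mex67. DESeq2 on the same 8 libraries called 47 features higher (1.07% of 4403 with an adjusted p) and 211 lower (4.79%). Without Npl3 replicate 2, the quasi-likelihood test called 8 higher (0.147% of 5424) and 112 lower (2.06%), and without any other of the 4 libraries it called none. With the replicate number of the labels as a block it called 55 higher (1.03% of 5334) and 283 lower (5.31%), and 0 when the block was joined to the length correction described below. With all 12 libraries in the fit, which adds the no-tag libraries to the estimate of the spread, 36 features were called higher (0.686% of 5245) and 170 lower (3.24%), and all 206 had an unadjusted p under 0.05 in the 8-library fit. The values below are therefore differences in these libraries whose call depends on the fit, and each list is given with its count at an unadjusted p under 0.05 and, where the 12-library fit called any member, with that count. Each list count at an unadjusted p under 0.05 is to be read beside the shares over all features, 7.69% higher and 14.4% lower. Each list count in the 12-library fit is to be read beside the shares in that fit, 0.686% higher and 3.24% lower.

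The largest median differences between the precipitates were in small messages. Short messages of the respiratory chain, the splicing machinery and the ribosome were mostly lower with Mex67 than with Npl3, and longer messages were somewhat higher. Messages for chaperones and other heat shock proteins were more often above 0 than below it at 42 °C, and none of them passed the test in the 8-library fit. Differences are given as log2 of Mex67 over Npl3, so a positive value means more with Mex67.

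Among genes that averaged 50 counts or more and whose groups did not overlap, the 12 with the lowest p in the higher direction were LST8, MET30, MUP1, YPS3, PLB3, PHO4, SFL1, TRK2, YAT1, ATG15, NUP100 and RPN10. All had an adjusted p of 0.0709 in the 8-library fit and between 0.0319 and 0.0451 in the 12-library fit. LST8 (YNL006W, chromosome XIV, 620067 to 620978 on build R64) encodes a subunit of both TOR complexes, which control growth in response to nutrients. It had 194 and 133 CPM with Mex67 and 14.6 and 30.5 CPM with Npl3, and the no-tag libraries had 18.4 and 62.9 CPM. Both Mex67 libraries were above every other library at 42 °C, with a log2 difference of 2.83 ± 0.42 (SE of the fit, n = 2 each). At 25 °C the difference for LST8 was 0.72.

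MET30 (YIL046W), the F-box subunit of a ubiquitin ligase that regulates sulfur metabolism, had 136 and 164 CPM with Mex67 and 31.8 and 30.5 CPM with Npl3, a log2 difference of 2.26 ± 0.42. MUP1, the methionine permease, had a log2 difference of 2.46 ± 0.46, from 214 and 426 CPM with Mex67, but it also had 331 and 164 CPM in the no-tag libraries. NUP100 (YKL068W, chromosome XI), which encodes an FG-repeat nucleoporin of the channel that Mex67 passes through, had 314 and 693 CPM with Mex67 and 53.0 and 91.6 CPM with Npl3, a log2 difference of 2.79 ± 0.62. RPN10, a ubiquitin receptor of the proteasome, had 267 and 312 CPM with Mex67 and 91.4 and 97.2 CPM with Npl3, with 220 and 277 CPM without a tag. For RPN10 the Mex67 libraries therefore lay near the no-tag level and the Npl3 libraries below it.

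The 12 genes with the lowest p in the lower direction were CTR3, TMA23, SUS1, FYV7, MRA1, SNT309, MDM35, CNL1, COX26, CYC1, MPP6 and SME1, with log2 differences between -4.27 and -2.09. SNT309 (YPR101W, chromosome XVI, 730492 to 731019), a subunit of the Prp19 complex that activates the spliceosome, had 60.7 and 16.7 CPM with Mex67 and 866 and 315 CPM with Npl3, against 36.7 and 20.1 CPM without a tag. Its log2 difference was -3.84 ± 0.66. SUS1 (YBR111W-A, chromosome II, 462139 to 462579), which encodes a small protein shared by the SAGA coactivator and the TREX-2 export complex, had 24.3 and 16.7 CPM with Mex67 and 155 and 105 CPM with Npl3, a log2 difference of -2.60 ± 0.40. In both genes the Npl3 libraries stood above all others at 42 °C, and the Mex67 libraries lay close to the no-tag level, which for SUS1 was 18.4 and 20.1 CPM.

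MPP6 (YNR024W), a nuclear exosome cofactor, had 58.1 and 21.4 CPM with Mex67 and 462 and 237 CPM with Npl3, a log2 difference of -3.06 ± 0.55. TMA23 (YMR269W), a nucleolar protein linked to ribosome assembly, had 26.9 and 14.3 CPM with Mex67 and 180 and 141 CPM with Npl3. COX26, a small subunit associated with cytochrome c oxidase, had 28.6 and 14.3 CPM with Mex67 and 596 and 212 CPM with Npl3. CTR3 (YLR411W), a copper transporter of the plasma membrane, had 14.7 and 2.38 CPM with Mex67 and 207 and 197 CPM with Npl3, and 18.4 and 0 CPM without a tag. CTR3 is silenced by a transposon insertion in many laboratory strains, and the strain cannot be told apart from the protein for this gene.

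**Figure D1:**
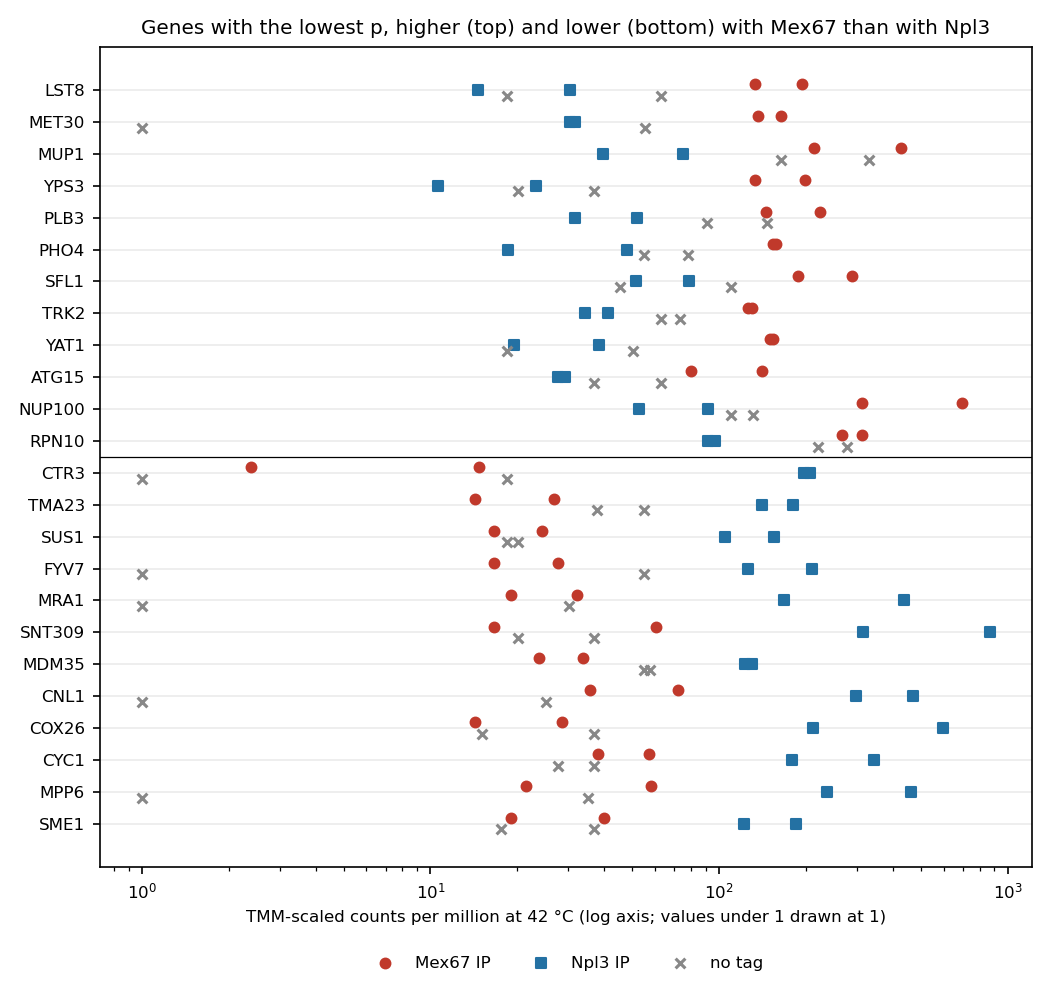
TMM-scaled CPM (log axis) at 42 °C of the 24 genes with the lowest p, 12 higher and 12 lower with Mex67, in the 2 Mex67, 2 Npl3 and 2 no-tag libraries. Each point is 1 library and values under 1 are drawn at 1; in the upper genes the Mex67 points lie to the right of the Npl3 points, and in the lower genes the Npl3 points lie to the right of all others.

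Across the features with an unadjusted p under 0.05, the level with each protein was also set beside the no-tag libraries, as the log2 ratio of mean CPM with 1 added to each. Among the 767 features lower with Mex67, the median ratio to no tag was 0.29 for Mex67 and 1.90 for Npl3, and 180 of them (23.5%) were more than 2-fold above no tag with Mex67 and 601 (78.4%) with Npl3. Over all tested features these shares were 18.7% for Mex67 and 27.0% for Npl3, so the Mex67 share lay near that of all features. Among the 410 features higher with Mex67, the median was 0.64 for Mex67 and -0.60 for Npl3, 132 of them (32.2%) were more than 2-fold above no tag with Mex67, and 122 (29.8%) were more than 2-fold below it with Npl3, a share that was 13.1% over all tested features. The medians over all tested features were 0.19 for Mex67 and 0.16 for Npl3. The features were chosen on the same Mex67 and Npl3 libraries, so these are descriptions. Most messages that were lower with Mex67 were above the background with Npl3, while those higher with Mex67 were at the median above the background with Mex67 and below it with Npl3. The no-tag libraries at 42 °C held 87741 and 485848 counts, so single values of the first are coarse. They also differed in heat shock messages. HSP26 had 331 and 3900 CPM in them, against 62.4 and 332 CPM without a tag at 25 °C. HSP12 had 331 and 4761 CPM, against 279 and 248 CPM without a tag at 25 °C. The background for such messages therefore depends on the library, and the cause was not tested.

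The difference between the proteins varied with gene length. Length here is the annotated span of the gene from start to end, introns included, and not the length of the spliced message. Over 5218 nuclear protein-coding genes, the log2 difference and the gene length had a Spearman correlation of 0.452, which is a description across genes that share the same 4 libraries. In 147 genes no longer than 300 bp the median difference was -1.65, and in 376 genes of 301 to 500 bp it was -1.11. In 1220 genes of 1001 to 1500 bp it was 0.03, and in 481 genes longer than 3000 bp it was 0.37. Genes with an unadjusted p under 0.05 had a median length of 1710 bp when higher with Mex67 and 626.5 bp when lower, beside 1284 bp for all coding genes.

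The same was seen in the raw shares of each library. Genes no longer than 500 bp took 7.26% and 6.47% of the protein-coding counts with Mex67 and 16.7% and 12.3% with Npl3, and 6.31% and 6.69% without a tag. Genes of over 2000 bp took 27.9% and 30.0% with Mex67, 18.5% and 23.7% with Npl3, and 25.8% and 28.9% without a tag. For both size classes the Npl3 libraries stood apart, and the ranges of the Mex67 and no-tag libraries overlapped. With 2 libraries against 2 an exact permutation test cannot go below p = 0.33, so no test was made on these shares. Whether fragment size, RNA integrity or recovery of short RNA differed between the precipitations was not tested.

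**Figure D2:**
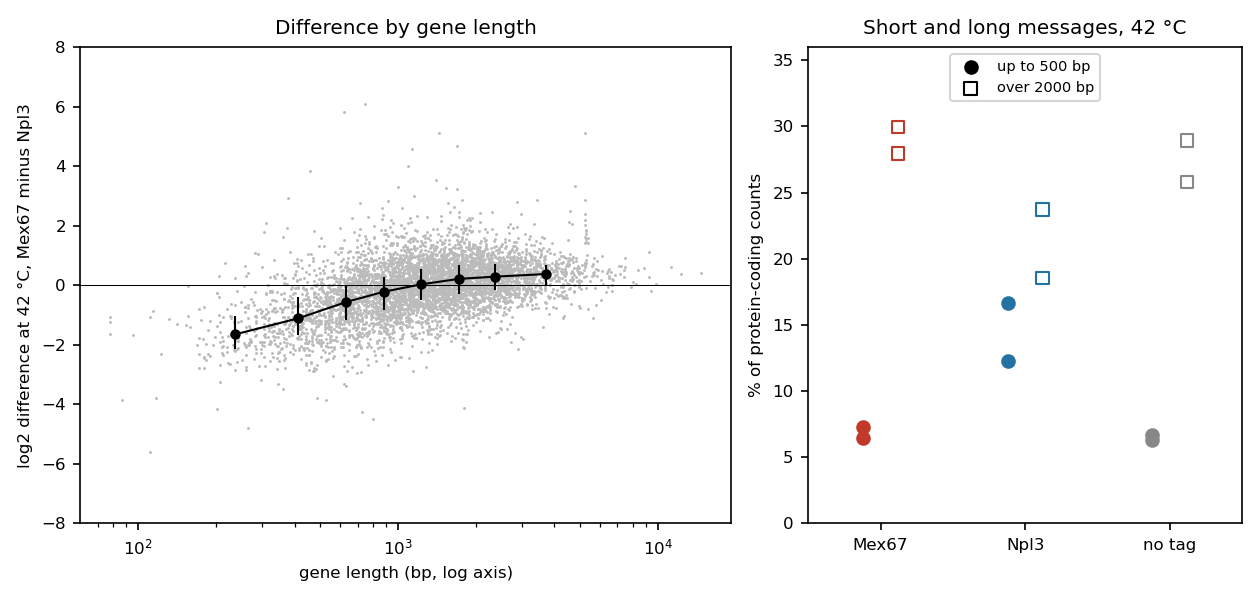
Left, log2 difference at 42 °C (Mex67 minus Npl3) against gene length in bp (log axis) for 5218 protein-coding genes, with the median and the middle 50% of genes in 8 length classes. Right, percent of protein-coding counts in genes no longer than 500 bp (filled circles) and over 2000 bp (open squares) in each library, where the Npl3 libraries have more short and fewer long messages than the Mex67 and no-tag libraries.

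To see what stays beyond gene length, the counts of each library were also fitted with an offset that follows it. The correlation with length was then 0.0607, and 0 features were called. Values after this correction are named as length-corrected below. For genes with introns, including those among the ribosomal protein genes, they do not show what stays beyond message length.

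Among the messages of oxidative phosphorylation, the enzymes of the mitochondrial inner membrane that make ATP, 43 of 45 nuclear-encoded members were lower with Mex67, with a median log2 difference of -1.70 against -0.03 over all tested features. By unadjusted p under 0.05, 31 of the 45 were lower and 0 higher. In the 12-library fit 13 were called lower (3.24% of all features in that fit). The Mex67 and Npl3 groups did not overlap in 37 of the 45 (29.8% of all features were lower without overlap). The median ran from -2.18 to -0.76 over the 4 pairings of a Mex67 with an Npl3 library and was -1.02 without Npl3 replicate 1. Length-corrected, it was -0.82, and 1 member lay above 0.

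Within the respiratory list short genes had the lowest values. ATP19 (207 bp), a small subunit of the ATP synthase, had 106 and 42.8 CPM with Mex67 and 1027 and 418 CPM with Npl3, a log2 difference of -3.24 ± 0.70. CYC1 (330 bp), a cytochrome c isoform, had 57.2 and 38.1 CPM with Mex67 and 343 and 180 CPM with Npl3, and its log2 difference was -2.42 ± 0.44. ATP1 (1638 bp) and ATP2 (1536 bp), the alpha and beta subunits of the catalytic head of the same ATP synthase, had differences of 0.06 ± 0.46 and -0.05 ± 0.47. ATP1 had 257 and 464 CPM with Mex67 and 416 and 271 CPM with Npl3, so its groups overlapped.

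Messages of the protein import machinery of mitochondria, the TOM and TIM complexes, had a median below 0 as well. Of 21 members 16 were lower with Mex67, 10 at an unadjusted p under 0.05, and 2 were called lower in the 12-library fit, with a median of -1.06. The length-corrected median was -0.07, and without Mex67 replicate 2 it was -0.69. TIM10, a small chaperone of the space between the membranes, had 59.0 and 117 CPM with Mex67 and 391 and 313 CPM with Npl3. Of the mitochondrial chaperones, MGE1, the nucleotide exchange factor of the matrix Hsp70, had 169 and 95.2 CPM with Mex67 and 710 and 423 CPM with Npl3, a log2 difference of -2.08 ± 0.49 (adjusted p of 0.0709, and 0.0383 in the 12-library fit). From the mitochondrial genome itself COX2, a core subunit of cytochrome c oxidase, had 382 and 183 CPM with Mex67 and 1787 and 684 CPM with Npl3, a log2 difference of -2.12 ± 0.61. The COX2 feature overlaps another annotated frame, so its reads may be shared.

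Among cytosolic ribosomal proteins 121 of 138 messages were lower with Mex67, with a median of -0.68. At an unadjusted p under 0.05, 38 were lower and 0 higher, and 12 were called lower in the 12-library fit. The size depended on the libraries paired: the median was between -2.04 and 0.11 over the 4 pairings, -0.03 without Mex67 replicate 1 and -1.82 without Mex67 replicate 2, and length-corrected it was -0.29. RPS21B, a protein of the small ribosomal subunit, had 197 and 257 CPM with Mex67 and 2076 and 1345 CPM with Npl3, a log2 difference of -2.92 ± 0.63. RPS29B, also of the small subunit, had 134 and 248 CPM with Mex67 and 1427 and 1210 CPM with Npl3. RPL31A of the large subunit had 240 and 557 CPM with Mex67 and 2641 and 1788 CPM with Npl3. Most ribosomal protein genes exist as near-identical pairs, and reads that fit both copies may be divided between them or lost.

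At the other end of that list stood ASC1, the ribosome-bound homologue of RACK1, with a log2 difference of 0.54 ± 0.90. ASC1 had 141 and 1040 CPM with Mex67 and 212 and 598 CPM with Npl3, so replicate 2 was the higher in both groups, and its gene holds a small nucleolar RNA in its intron. Translation factors had a median of 0.20 over 42 members, which was -0.28 without Mex67 replicate 2 and -0.17 without Npl3 replicate 1, with 5 lower and 0 higher at an unadjusted p under 0.05. The 12-library fit called 1 of them lower, TIF11. That gene, which encodes the initiation factor eIF1A, had 307 and 167 CPM with Mex67 and 1899 and 985 CPM with Npl3, a log2 difference of -2.60 ± 0.63 (adjusted p of 0.0709).

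Messages for ribosome assembly factors had a median of -0.33 over 137 members, 36 lower and 3 higher at an unadjusted p under 0.05, and 9 were called lower in the 12-library fit. NOP16, a factor of the large subunit's assembly, had 173 and 90.5 CPM with Mex67 and 1463 and 602 CPM with Npl3, a log2 difference of -2.95 ± 0.62. In contrast NSR1, nucleolin, had 139 and 207 CPM with Mex67 and 43.7 and 120 CPM with Npl3, a difference of 1.06 ± 0.52, but 753 and 448 CPM without a tag. The length-corrected median of the list was -0.31, close to the uncorrected one, but without Npl3 replicate 2 the median was 0.05.

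For the splicing machinery 64 of 83 messages of spliceosome proteins were lower with Mex67, with a median of -0.72, and 32 were lower and 3 higher at an unadjusted p under 0.05. In the 12-library fit 10 were called lower. The median was -0.998 to -0.436 over the 4 pairings and -0.54 length-corrected, so it was below 0 in each. CWC15, another factor associated with the Prp19 complex, had 153 and 50.0 CPM with Mex67 and 865 and 335 CPM with Npl3, a log2 difference of -2.53 ± 0.60. SME1, the Sm protein E of the snRNPs, had 39.9 and 19.0 CPM with Mex67 and 184 and 122 CPM with Npl3. PRP8, the long message of the spliceosome's central protein, was an exception at 344 and 459 CPM with Mex67 and 223 and 286 CPM with Npl3, a log2 difference of 0.66 ± 0.40.

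Genes with introns outside the ribosomal protein genes had a median of -0.52 over 105 members, 38 lower and 3 higher at an unadjusted p under 0.05, and 12 were called lower in the 12-library fit. Their median was -0.82 to -0.41 over the pairings and -0.31 length-corrected. Counts were per gene, so spliced and unspliced transcripts were not distinguished. Some of these genes also encode spliceosome or export proteins, as SUS1 does. HAC1, the transcription factor of the unfolded protein response, had 1678 and 1331 CPM with Mex67 and 909 and 745 CPM with Npl3. Its difference was 0.86 ± 0.54, and it had 1929 and 1429 CPM without a tag, near the Mex67 level and above Npl3.

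The messages of export factors and nuclear messenger-RNA-binding proteins lay in both directions. Of 48 members 6 were higher and 14 lower at an unadjusted p under 0.05, and 1 was called higher and 4 lower in the 12-library fit. The median was -0.15, and 0.03 without Npl3 replicate 2. NAB2 (YGL122C), a poly(A)-binding protein that partners Mex67, had 271 and 381 CPM with Mex67 and 132 and 118 CPM with Npl3, a log2 difference of 1.38 ± 0.38 (adjusted p of 0.0825, and 0.0471 in the 12-library fit). NSP1, a nucleoporin of the central channel, had 157 and 505 CPM with Mex67 and 91.4 and 150 CPM with Npl3. CDC31, the yeast centrin of the TREX-2 complex, had 180 and 64.3 CPM with Mex67 and 1239 and 513 CPM with Npl3, a difference of -2.82 ± 0.62. SEM1, which serves both TREX-2 and the proteasome lid, had 264 and 88.1 CPM with Mex67 and 824 and 429 CPM with Npl3.

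Each bait's own message was higher in its own precipitate. MEX67 had 192 and 102 CPM with Mex67 and 57.0 and 75.9 CPM with Npl3, a log2 difference of 1.16 ± 0.45 with an adjusted p of 0.173. NPL3 had 742 and 421 CPM with Mex67 and 1392 and 2107 CPM with Npl3, a difference of -1.59 ± 0.57 with an adjusted p of 0.146. Without a tag MEX67 had 110 and 75.5 CPM and NPL3 had 606 and 428 CPM, so the Npl3 libraries stood out for NPL3 and 1 Mex67 library did for MEX67.

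**Figure D3:**
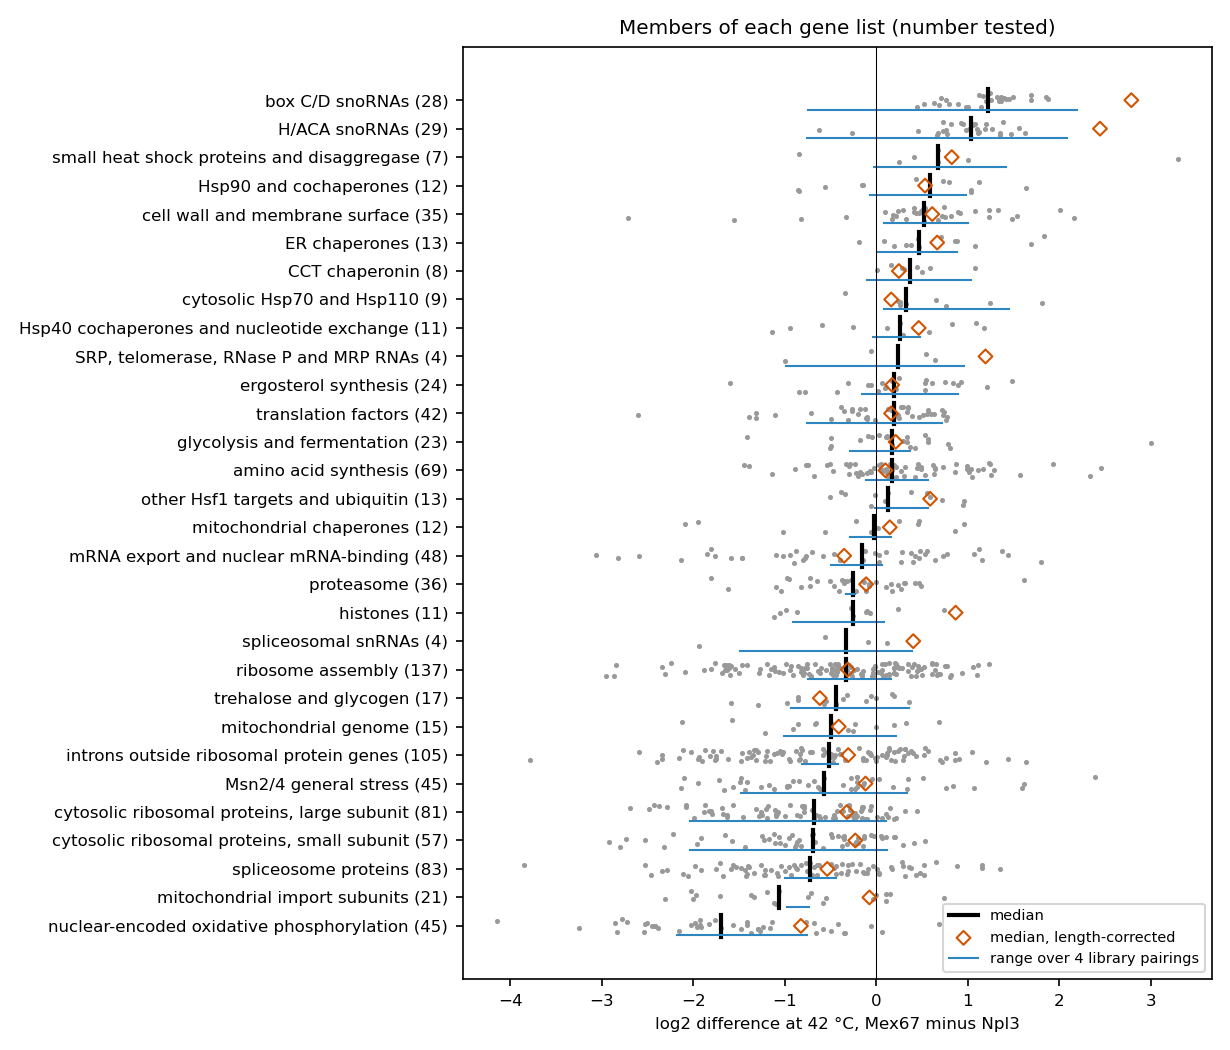
Log2 difference at 42 °C (Mex67 minus Npl3) of each tested member (grey points) of 30 gene lists, ordered by the list median (black bar), with the length-corrected median (open diamond) and the range of the median over the 4 pairings of libraries (blue line). Oxidative phosphorylation lies lowest at -1.70, and the snoRNA lists lie highest with ranges that cross 0.

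The heat shock proteins were the messages the study's question turned on. Over 7 lists of chaperones, 54 of 72 tested members were higher with Mex67 (48.6% of all features were above 0), with a median of 0.39. By unadjusted p under 0.05, 9 were higher and 5 lower (7.69% and 14.4% of all features). The 12-library fit called 1 in each direction (0.686% higher and 3.24% lower over all features in that fit). The groups did not overlap in 25 members in the higher direction (23.7% of all features) and in 10 in the lower (29.8% of all features). The median ran from 0.12 to 0.66 over the 4 pairings, was 0.17 without Npl3 replicate 1 and 0.71 without Npl3 replicate 2, and was 0.36 length-corrected, while the same lists had a median of -0.12 at 25 °C.

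The list of small heat shock proteins and the disaggregase also holds HSP30 and BTN2. Of its members 6 of 7 were above 0, with a median of 0.68, and 1, HSP30, had an unadjusted p under 0.05. BTN2 had a difference of 1.00 ± 0.67. The median was 0.24 without Mex67 replicate 1 and 1.14 without Mex67 replicate 2, and ran from -0.03 to 1.42 over the 4 pairings. HSP30 (YCR021C, chromosome III, 156109 to 157107), a membrane protein that restrains the proton pump Pma1, had 847 and 852 CPM with Mex67 and 50.3 and 121 CPM with Npl3, against 184 and 146 CPM without a tag. Its log2 difference was 3.30 ± 1.16, with an unadjusted p of 0.0212 and an adjusted p of 0.151. At 25 °C HSP30 had 214 and 10.0 CPM with Mex67 and 40.4 and 199 CPM with Npl3, so it did not separate the proteins there.

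HSP26 had nearly the same level with both proteins, with a log2 difference of 0.25 ± 0.88, and its groups overlapped. HSP12, a small protein that protects membranes, had 2641 and 2378 CPM with Mex67 and 6129 and 2872 CPM with Npl3, a difference of -0.84 ± 0.71, which was 0.31 length-corrected. HSP42, another small heat shock protein, had 1882 and 1119 CPM with Mex67 and 1206 and 668 CPM with Npl3, a difference of 0.68 ± 0.84. HSP104, the disaggregase that pulls apart protein aggregates, had 4211 and 3390 CPM with Mex67 and 2668 and 3050 CPM with Npl3, a difference of 0.41 ± 0.60. The groups did not overlap for HSP12 and HSP104, in opposite directions, and overlapped for HSP42.

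Of 9 cytosolic Hsp70 and Hsp110 chaperones 8 were above 0, with a median of 0.32, which was -0.11 without Npl3 replicate 1 and 1.35 without Npl3 replicate 2, and none at an unadjusted p under 0.05. SSA4, the heat-inducible Hsp70, had 3203 and 1704 CPM with Mex67 and 617 and 1462 CPM with Npl3, a log2 difference of 1.24 ± 0.90. At 25 °C it was -1.14, and the change of the difference with heat was 2.38 ± 1.29 with an unadjusted p of 0.0938. SSA2, a constitutive Hsp70, had 1851 and 4270 CPM with Mex67 and 233 and 1511 CPM with Npl3, with 3582 and 3583 CPM without a tag. SSA1 and SSA2 are nearly identical in sequence, so their reads may be mixed.

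Of 12 members of the Hsp90 group 7 were above 0 and 5 below, with a median of 0.59 and 1 in each direction at an unadjusted p under 0.05, AHA1 and CDC37. The median was 0.17 without Npl3 replicate 1, 0.27 without Mex67 replicate 1 and 0.88 without either of the others, and it ran from -0.06 to 0.98 over the pairings. AHA1, the activator of Hsp90's ATPase, had 508 and 543 CPM with Mex67 and 55.6 and 281 CPM with Npl3, a log2 difference of 1.63 ± 0.67 with an adjusted p of 0.19. HSP82 and HSC82, the inducible and constitutive copies of Hsp90, had differences of 1.04 ± 0.72 and 1.13 ± 0.78, and they are close in sequence too. HSC82 had 3967 and 4032 CPM with Mex67 and 787 and 2876 CPM with Npl3, so most of its difference lay in Npl3 replicate 1. Without a tag HSC82 had 3728 and 4011 CPM, close to Mex67 and above Npl3. AHA1 had 165 and 310 CPM without a tag, below both Mex67 libraries. In the other direction, the cochaperones CDC37 and SBA1 had differences of -0.85 ± 0.35 and -0.85 ± 0.48.

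In the endoplasmic reticulum 12 of 13 chaperones and folding enzymes were above 0, with a median of 0.47, 3 higher at an unadjusted p under 0.05 and 1 called higher in the 12-library fit. The median was 0.20 without Mex67 replicate 1 and 0.99 without Npl3 replicate 2. The called gene was ERO1 (YML130C, chromosome XIII, 11483 to 13174), the oxidase that supplies disulfide bonds, with 238 and 195 CPM with Mex67 and 45.0 and 88.9 CPM with Npl3. Its log2 difference was 1.69 ± 0.40, with an adjusted p of 0.0709 in the 8-library fit and 0.042 in the 12-library fit. KAR2, the Hsp70 of this compartment, had 1781 and 1923 CPM with Mex67 and 242 and 795 CPM with Npl3, a difference of 1.83 ± 0.66. For ERO1 and KAR2 the no-tag libraries, at 184 and 161 CPM and at 1267 and 1510 CPM, were closer to Mex67 than to Npl3.

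Of the CCT chaperonin, which folds actin and tubulin, all 8 subunits were above 0, with a median of 0.37 and 1 at an unadjusted p under 0.05, CCT6 with a difference of 1.08 ± 0.47. The median was 0.12 without Npl3 replicate 1 and 0.83 without Npl3 replicate 2, and ran from -0.10 to 1.04 over the pairings. CCT6 had 261 and 443 CPM with Mex67, 125 and 205 CPM with Npl3 and 422 and 463 CPM without a tag. Among Hsp40 cochaperones YDJ1, the main partner of cytosolic Hsp70, had 641 and 438 CPM with Mex67 and 117 and 361 CPM with Npl3. Its difference was 1.17 ± 0.57, and it had 661 and 619 CPM without a tag, near or above the Mex67 level. DJP1, which serves peroxisomal import, had a difference of -1.14 ± 0.49.

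**Figure D4:**
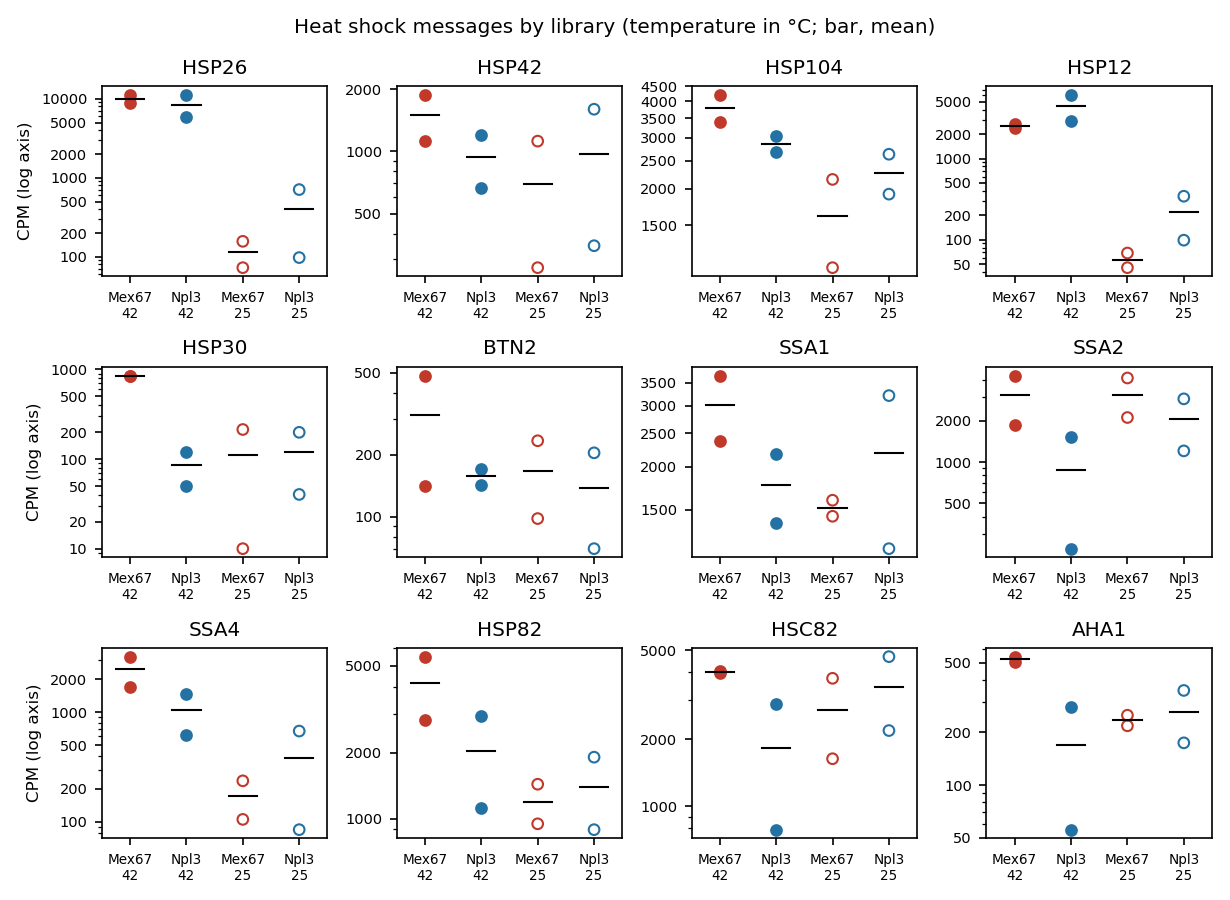
CPM (log axis, scaled per gene) of 12 heat shock messages with Mex67 and Npl3 at 42 °C (filled) and at 25 °C (open), with each point 1 library and each bar the mean of 2. HSP30 is 847 and 852 CPM with Mex67 at 42 °C, above every other library, and HSP26 is about equal with both proteins.

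The general stress genes under Msn2 and Msn4 had a median on the other side of 0 from the chaperones. Of 45 members 34 were lower with Mex67, with a median of -0.57, and 3 were higher and 6 lower at an unadjusted p under 0.05. These counts lay near the shares over all features, 7.69% higher and 14.4% lower. The median was -1.48 to 0.33 over the 4 pairings, 0.06 without Npl3 replicate 1 and -0.12 length-corrected. PHM7, a membrane protein of the stress regulon, had 172 and 85.7 CPM with Mex67 and 31.8 and 18.5 CPM with Npl3, a log2 difference of 2.39 ± 0.64. YRO2, a homologue of HSP30 that is induced by stress, had 897 and 326 CPM with Mex67 and 152 and 246 CPM with Npl3, a difference of 1.62 ± 0.69, against -0.94 at 25 °C. GRX2, a glutaredoxin, had 244 and 143 CPM with Mex67 and 1108 and 561 CPM with Npl3, a difference of -2.10 ± 0.52, and its feature overlaps the gene EMI1.

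Genes of trehalose and glycogen metabolism, the storage sugars of stressed yeast, had a median of -0.44 over 17 members, 0.12 without Npl3 replicate 1 and -0.84 without Npl3 replicate 2, and none at an unadjusted p under 0.05. PGM2, a phosphoglucomutase, had 600 and 336 CPM with Mex67 and 1977 and 850 CPM with Npl3, a difference of -1.59 ± 0.74. TSL1, a subunit of trehalose synthase, had 1211 and 1473 CPM with Mex67 and 1220 and 873 CPM with Npl3, a difference of 0.36 ± 0.66. Cell wall and surface proteins were above 0 in 31 of 35 members, with a median of 0.53 and 2 in each direction at an unadjusted p under 0.05. TOS6, a cell wall protein, was the one call in the 12-library fit, at 6.94 and 33.3 CPM with Mex67 and 94.1 and 138 CPM with Npl3. Among 69 genes of amino acid synthesis, 6 were higher and 1 lower at an unadjusted p under 0.05, with a median of 0.17, which was 0.10 without Npl3 replicate 1 and 0.35 without Npl3 replicate 2. The one call in the 12-library fit was ARO2, chorismate synthase, named after its value was seen, at 449 and 336 CPM with Mex67 and 102 and 162 CPM with Npl3 and a difference of 1.57 ± 0.45. MET6, methionine synthase, had 756 and 669 CPM with Mex67, 90.1 and 169 CPM with Npl3, and 2222 and 330 CPM without a tag.

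Glycolysis and fermentation genes had a median of 0.18 over 23 members with none at an unadjusted p under 0.05. Of these, 16 were above 0 and 7 below, the lowest at -1.41. Their median was 0.36 without Mex67 replicate 1 and -0.00246 without Mex67 replicate 2, and ACT1, actin, had a difference of 0.26 ± 0.61. The proteasome had a median of -0.25 over 36 members, with 1 higher and 4 lower at an unadjusted p under 0.05, the higher being RPN10, which was also the one call in the 12-library fit. Proteasome members ran from -1.81 to 1.61, and the median was -0.09 without Mex67 replicate 2. CDC19, pyruvate kinase, had 5424 and 9821 CPM with Mex67 and 5269 and 6515 CPM with Npl3, a difference of 0.37 ± 0.69. Histones had a median of -0.25 over 11 members, with 1 lower at an unadjusted p under 0.05. The length-corrected median was 0.87, so their direction turned with the correction.

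Of the 4 spliceosomal snRNAs tested, U1 had the largest difference. The U1 snRNA (SNR19, chromosome XIV, 230105 to 230672), which pairs with the start of introns, had 13159 and 10906 CPM with Mex67 and 50818 and 41098 CPM with Npl3, against 7071 and 13861 CPM without a tag. Its log2 difference was -1.93 ± 0.71, with an unadjusted p of 0.0218 and an adjusted p of 0.153. U2 (LSR1) had 11495 and 20392 CPM with Mex67 and 21506 and 25604 CPM with Npl3, but 97400 and 38008 CPM without a tag. So U1 was above the background with Npl3, and U2 was below it in all 4 precipitates. The groups overlapped for the U4 and U6 snRNAs.

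Small nucleolar RNAs, which guide modification of ribosomal RNA, had a median of 1.11, and 55 of 57 were above 0. No snoRNA had groups that did not overlap in the higher direction (23.7% of all features), and 2 were higher at an unadjusted p under 0.05. They took 3.24% of the counts of Mex67 replicate 1 and 13.0% of replicate 2, against 3.95% and 3.55% with Npl3 and 23.9% and 8.99% without a tag. The median was -0.76 to 2.11 over the pairings, and replicate 2 of Mex67 was the library with the high values. Without it the median was -0.42. SNR63, a box C/D RNA, had 366 and 2797 CPM with Mex67 and 416 and 446 CPM with Npl3. The RNA of the signal recognition particle, SCR1, was likewise 12058 and 53892 CPM with Mex67 and 24133 and 21034 CPM with Npl3, and 178985 and 65274 CPM without a tag.

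At 25 °C the same contrast had no call either (0% of 5334, lowest adjusted p of 0.0556), with 451 features higher and 776 lower at an unadjusted p under 0.05 (8.46% and 14.5%). The log2 differences at the 2 temperatures had a Pearson correlation of 0.786 over 5334 features, and the libraries came from the same divided cultures. Of the 1177 features with an unadjusted p under 0.05 at 42 °C, 1146 had the same sign at 25 °C (97.4%), beside 80.2% of all features. Oxidative phosphorylation had a median of -1.70 at 42 °C and -1.57 at 25 °C, and its median change of the difference with heat was 0.13.

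Whether the difference between the proteins itself changed with heat was tested as an interaction, and no feature passed (0% of 5334, lowest adjusted p of 1.00). At an unadjusted p under 0.05, 44 features were higher and 20 lower (0.825% and 0.375%). For the list of small heat shock proteins, which holds HSP30 and BTN2 too, the median change of the difference was 1.11. It was 0.59 for Hsp90 and its cochaperones and 0.41 for all chaperone lists, against 0.02 for all features. Changes near those of all chaperones or larger were also seen outside them. The proteasome had a median change of 0.63, histones 0.41 and mitochondrial import subunits 0.39, while amino acid synthesis had -0.38. No range over libraries was computed for these medians. Of 72 chaperone messages 54 lay above 0 at 42 °C and 32 at 25 °C. For HSP30 the change was 3.42 ± 1.58 (unadjusted p of 0.0606), for AHA1 1.78 ± 0.93 (0.0852) and for HSP26 2.06 ± 1.28 (0.139), so none had an unadjusted p under 0.05. LST8, chosen at 42 °C, had a change of 2.11 ± 0.59 with an unadjusted p of 0.00528. All these p come from the fit without a term for the culture, although the temperatures shared divided cultures. With the culture as a block the lowest adjusted p was 0.279, and values of single genes in that fit are not given here.

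**Figure D5:**
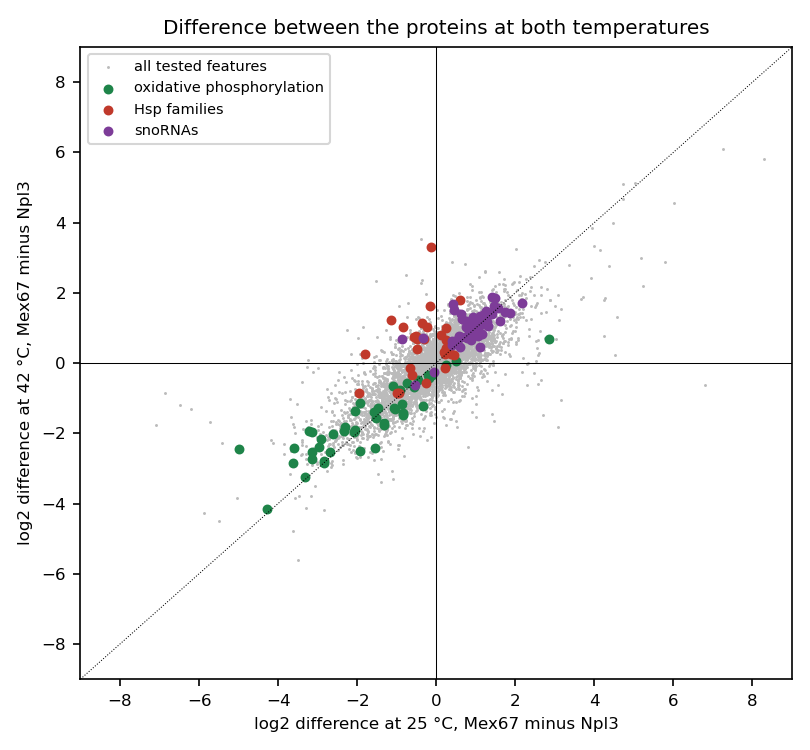
Log2 difference (Mex67 minus Npl3) at 42 °C against that at 25 °C for all 5334 tested features (grey), oxidative phosphorylation (green), the Hsp families of small heat shock proteins, Hsp70 and Hsp90 (red) and snoRNAs (purple), with the dotted line marking equal values. Most features lie along the line, and HSP30 is the red point at 3.30 on the vertical axis.

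Of the markers of strain and mating type, some separated the proteins at 42 °C and others followed the replicate number. URA3, a biosynthetic gene used as a selection marker and described here after its values were seen, had 106 and 9.52 CPM with Mex67 and 1847 and 911 CPM with Npl3, a log2 difference of -4.50. LEU2, another such marker, had 441 and 0 CPM with Mex67 and 13.2 and 14.8 CPM with Npl3. Of the mating-type genes STE2 had 4.34 and 159 CPM with Mex67 and 6.62 and 226 CPM with Npl3, so it followed the replicate number. STE3, the receptor of alpha cells, had 143 and 92.8 CPM with Mex67 and 1.32 and 60.2 CPM with Npl3. HMRA1 lies in the silent a-type cassette and shares its sequence with the expressed gene of a cells, so reads of either may be counted there. It had 10.4 and 28.6 CPM with Mex67 and 322 and 169 CPM with Npl3, a difference of -3.78 ± 0.82 (adjusted p of 0.0709). Over the whole list of 21 tested markers 11 were above 0 and 10 below, with a median of 0.06, which was -1.10 without Mex67 replicate 2. URA3 and HMRA1 were lower at an unadjusted p under 0.05, and HMRA1 was called lower in the 12-library fit. The list took 0.231% and 0.199% of the counts with Mex67, 0.282% and 0.461% with Npl3, and 0.313% and 0.276% without a tag. Their part in the other differences was not tested.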

How the data were processed

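Each library has 1 deposited table of whole-number read counts by gene, which the authors made with CASAVA 1.8.2, STAR and featureCounts of Subread 1.5.0-p1 on build R64, per the submitters' processing notes. How strand and multiply aligned reads were handled is not given in the sources used here. Of 7126 features 6048 were matched to a symbol and coordinates by locus tag, 121 by symbol or synonym and 957 not at all.

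Tests used edgeR 4.0.16 in R 4.3.3 (robust quasi-likelihood fit, TMM scaling, filterByExpr with 10 counts and 15 in total, Benjamini-Hochberg over 5334 features at 0.05) on the 8 Mex67 and Npl3 libraries. Each group had its own mean, which left 4 residual degrees of freedom. The fit had no term for the culture, although the 2 temperatures shared divided cultures. The deviations between replicates may therefore not be independent, which also limits the p-values and SEs at 42 °C. Between the temperatures these deviations had a correlation of 0.590 with Mex67 and 0.0983 with Npl3. The common biological coefficient of variation was 0.357. CPM are TMM-scaled, the SE of a log2 difference comes from its size and its F statistic, and list medians over pairings use log2 of CPM with 1 added. Length correction used a lowess of span 0.4 on log10 length per library. Alternatives included DESeq2 1.42.0. Figures were drawn with matplotlib 3.10.9.

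Simulated data for the 42 °C contrast were 3 data sets with 200 of 5334 genes changed in each. The changed genes were drawn only from those above a minimum fitted mean count. The test found 38.7% of the 4-fold and 1.3% of the 2-fold differences, with 6 false calls among 126. Genes were named by a rule: the 12 lowest p in each direction with at least 50 mean counts and no overlap, from each list the 2 members at either extreme, and a set of fixed genes. These make 158 genes, and the text gives some of them. The lists, the rule and the comparison were chosen with earlier results of these data known. PCR copies were not distinguished in the counts.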

Additional observations from a re-analysis of the deposited data

How the results depend on the processing

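The count of calls at 42 °C, 0 higher and 0 lower, depended on the setting. It was 54 higher and 154 lower without the low-count filter, 36 and 170 with all 12 libraries, 47 and 211 with DESeq2, and 0 to 8 higher and 0 to 112 lower when 1 library was left out, the highest without Npl3 replicate 2. With the replicate number as a block it was 55 and 283. The deviations of replicate 1 from replicate 2 had a correlation of 0.478 between Mex67 and Npl3 at 42 °C and 0.0752 at 25 °C, 0.590 between the temperatures with Mex67 and 0.0983 with Npl3. STE2 separated the replicate numbers in all 6 groups, but the labels do not say what a number shares across strains, and 2 pairs are too few to settle it. Both counts were 0 with RLE size factors, total counts only, length-corrected offsets with or without the block, a filter of 50 counts on average, a fit of the 4 heated libraries alone, and coding genes only. Features at an unadjusted p under 0.05 were 212 higher and 468 lower with at least 50 counts, and 154 to 461 higher and 356 to 801 lower with 1 library left out, lowest without Npl3 replicate 1. The heat interaction had 0 calls under every alternative run, and its lowest adjusted p with the culture as a block was 0.279. The cause of these shifts was not tested. Scaling by total counts put the median difference over all features at 0.10.

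Of the genes named, most kept their direction. With length-corrected offsets, ATP1 was -0.0927 (-0.0915 with the block), and HSP12 was 0.31 (0.44 with the block). ATP2 was 0.0541 with scaling by total counts, 0.0303 without the filter and 0.0416 with coding genes only. With 1 library left out, ACT1 ran from -0.23 to 0.69, ASC1 from -1.41 to 1.47, ATP1 from -0.29 to 0.43, ATP2 from -0.23 to 0.14, HSP26 from -0.14 to 0.77, LEU2 from -6.28 to 5.08, SCR1 from -0.78 to 1.25, SNR63 from -0.11 to 2.70 and STE2 from -4.62 to 3.49. With 449513 counts in the shallower Mex67 library and 2 libraries per group, the simulated test recovered 1.3% of 2-fold differences, so it missed most differences of that size. The simulation drew the libraries independently and changed 200 of 5334 genes, so recovery in the real data may differ. No gene of low fitted mean was changed, so recovery among such genes was not measured.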

Other observations

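Several gene groups at 42 °C lay near 0 as groups but held single messages with larger differences. Of 24 genes of ergosterol synthesis, the sterol pathway of the yeast membrane, 17 were above 0, with a median of 0.20 and 1 in each direction at an unadjusted p under 0.05. The median was 0.02 without Npl3 replicate 1 and 0.54 without Mex67 replicate 1. ERG7, lanosterol synthase, had 174 and 124 CPM with Mex67 and 37.1 and 90.7 CPM with Npl3, a log2 difference of 1.22 ± 0.48 (adjusted p of 0.178). ERG28, a short scaffold protein of the same pathway, had 66.8 and 85.7 CPM with Mex67 and 274 and 186 CPM with Npl3, a difference of -1.60 ± 0.58 (adjusted p of 0.15).

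The 11 Hsp40 cochaperones and exchange factors had a median of 0.26 with 1 in each direction at an unadjusted p under 0.05. The median was 0.01 without Npl3 replicate 1 and 0.57 without Npl3 replicate 2. The 12 mitochondrial chaperones had a median of -0.02 with 2 higher and 3 lower, 1 of them called lower in the 12-library fit, and the sign of the median turned under 11 of 15 alternatives. The 13 other Hsf1 targets and ubiquitin genes had a median of 0.12 with 1 higher. That median was 0.59 length-corrected, 0.47 with length correction and the replicate block, 0.60 without Mex67 replicate 2 and -0.02 without Mex67 replicate 1. The higher gene was MDJ1, the Hsp40 of the mitochondrial matrix, with 281 and 317 CPM with Mex67 and 152 and 154 CPM with Npl3, a difference of 0.96 ± 0.40.

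The 15 tested features of the mitochondrial genome had a median of -0.50 with 3 lower at an unadjusted p under 0.05 and 1 called lower in the 12-library fit, and 0.03 without Npl3 replicate 1. The 4 RNAs of the signal recognition particle, telomerase, RNase P and RNase MRP had a median of 0.24, with none under that threshold, and -0.72 without Mex67 replicate 2. TLC1, the telomerase RNA, had 532 and 421 CPM with Mex67 and 1269 and 637 CPM with Npl3, a difference of -0.998 ± 0.57 (adjusted p of 0.332). The 4 spliceosomal snRNAs had a median of -0.33, which was 0.40 length-corrected and -1.28 without Mex67 replicate 2.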
